A study of Mus musculus with 4 samples.

Results

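The E2F family of transcription factors and its partners were examined in early T lineage progenitors (ETP) sorted from the thymus of old and young mice. The members were chosen by name as *E2f1* to *E2f8*, the dimer partner gene *Tfdp1* and the pocket protein gene *Rbl1*, which are 10 of the 23361 genes of the deposited table, and all 10 were tested. There were 2 libraries from old mice of 72 weeks and 2 from young mice of 4 to 6 weeks, all female C57BL/6. The study's methods give C57BL/6J for the young adults and B6 for the old mice, which came from another colony, so age and colony cannot be told apart. ETP, the most immature thymocytes, were gated as lineage-negative CD44+ CD25- CD117+ cells. No mutation or treatment was applied to either age, and the labels leave unstated if each library is a separate animal or a pool of thymi. The p-values therefore rest on library spread alone, part of which may be technical. The table calls the old condition 20m where the labels give 72 weeks. Its library numbers 0 and 1 are given here as replicates 1 and 2, without settling which labelled sample each stands for.

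E2F factors bind DNA and set when a cell leaves G1 and copies its genome. E2f1, E2f2 and E2f3 are known as activators that switch on genes of DNA synthesis, E2f4, E2f5 and E2f6 as repressors, and E2f7 and E2f8 as atypical repressors that bind DNA without a dimer partner. The other factors pair with a DP protein such as the product of *Tfdp1*. Pocket proteins (Rb, p107 and p130, encoded by *Rb1*, *Rbl1* and *Rbl2*) hold E2F factors in check until kinases of the D and E cyclins phosphorylate them.

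Several E2F genes are themselves known targets of E2F factors, so the promoters of the members are shown before their levels. RefSeq windows of 300 bases on GRCm38 (250 before and 50 after an annotated transcription start) were found for 8 of the 10 members, with *E2f4* and *E2f5* not among them. An E2F site, searched on both strands as TTTCCCGC, TTTCGCGC, TTTGCCGC or TTTGGCGC, stood in a window of 5 of these 8 genes (*E2f2*, *E2f3*, *E2f7*, *Tfdp1* and *Rbl1*), against 2.6% of the 27025 genes with a window. A CHR element, the motif bound by the MuvB complex of cell cycle genes (TTTGAA or TTCGAA, both strands), stood in windows of *E2f2*, *E2f3* and *E2f8*, against 21.7% of genes. The stretches below come from 5 members whose windows hold a match before the start, chosen to show each kind of site, with *Mcm6*, a replication helicase gene and E2F target described further on. Capitals mark the matched motifs, and in *Mcm6* a pair of E2F sites overlaps.
E2f3, chr13:29986064-29986123, minus strand, E2F site and CHR element: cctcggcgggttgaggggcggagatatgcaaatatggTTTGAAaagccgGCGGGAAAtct
E2f7, chr10:110745215-110745274, plus strand, E2F site: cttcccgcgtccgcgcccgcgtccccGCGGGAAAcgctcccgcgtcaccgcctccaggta
E2f8, chr7:48881597-48881656, minus strand, CHR element: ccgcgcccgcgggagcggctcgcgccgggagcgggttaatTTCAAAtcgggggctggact
Tfdp1, chr8:13338691-13338750, plus strand, E2F site: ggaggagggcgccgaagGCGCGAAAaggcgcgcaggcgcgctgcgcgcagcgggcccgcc
Rbl1, chr2:157204535-157204594, minus strand, E2F site: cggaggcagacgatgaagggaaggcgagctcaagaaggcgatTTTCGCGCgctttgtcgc
Mcm6, chr1:128359706-128359825, minus strand, E2F sites: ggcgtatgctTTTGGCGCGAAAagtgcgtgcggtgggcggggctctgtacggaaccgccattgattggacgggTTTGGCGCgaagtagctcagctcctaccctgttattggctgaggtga
Among the E2F sites before a start, that of *E2f3* was nearest, with its first base 11 bases before it, followed by those of *Rbl1* at 18, *Tfdp1* at 43 and *E2f7* at 198 bases. In *E2f2*, not printed, the E2F site lay 40 bases after the start, and a second window, at another start of the gene, held a CHR element 31 bases before it. A match of letters is a description and no evidence of binding.

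The libraries held 4839341 to 16658865 fragments, with replicate 2 the shallower in both ages. Levels are given as TMM-normalized CPM, that is fragments scaled to a common library size, for comparisons between libraries and as the authors' FPKM, which are per transcript length, for comparisons between genes. *Kit*, which encodes CD117, was at 909 and 960.0 CPM in old and 769 and 1065 CPM in young ETP, so all libraries expressed the gene of the gate. Of the listed markers of conventional dendritic cells, 12 of 12 tested had higher estimates in old ETP, and none of the 14 listed was at 0. Over all tested genes, 4739 of 10080 had higher estimates. Both old libraries lay above both young ones in 11 of the 12, against 16.4% of all tested genes. DESeq2 called 11 of the 12, against 2.23% of all tested genes, and edgeR called 0 by adjusted p. The summed levels of the 14 were 6127 and 20849 CPM in old and 878 and 1368 CPM in young ETP. In the old libraries *Cd74* (2763 and 9200 CPM) and *H2-Aa* (1164 and 3790 CPM) were the largest parts of this sum. Of 9 tested markers of NK and innate lymphoid cells, DESeq2 called 4 and edgeR 0 by adjusted p. Both old libraries lay above both young ones in 5 of the 9. Higher estimates in old ETP were found for 8 of them (summed levels 428 and 529 CPM in old, 293 and 328 CPM in young). The largest part of these sums was *Nkg7*, the tested marker with a lower estimate (224 and 160 CPM in old, 222 and 207 CPM in young ETP). *Tbx21*, which was not tested, had 23 and 15 fragments in old and 0 in both young libraries. Of 6 tested markers of committed and mature T cells, 3 had higher and 3 lower estimates (summed levels 262 and 273 CPM in old, 285 and 293 CPM in young ETP), with *Ptcra* at 0 in every library. Among them *Cd3e* had 10.9 and 36.7 CPM in old and 3.36 and 2.80 CPM in young ETP and passed DESeq2 (adjusted p = 0.00142) but not edgeR, while *Rag2* had 20.3 and 44.3 CPM in old and 47.3 and 94.0 CPM in young ETP. Markers of thymic epithelium and stroma summed to 2.26 and 22.4 CPM in old and 1.59 and 9.33 CPM in young ETP, with *Foxn1* at 0 in every library. In bulk RNA, fewer cells of a type and less RNA per cell cannot be told apart.

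**Figure D1:**
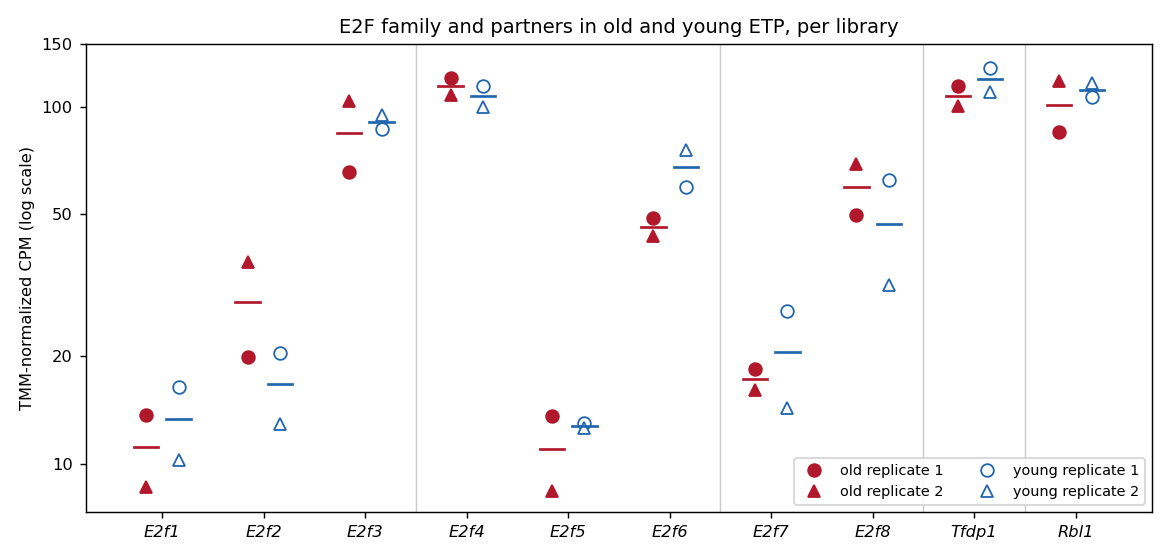
TMM-normalized CPM (log scale) of the 10 genes in each library. Filled red symbols are old and open blue symbols young ETP, circles are replicate 1, triangles replicate 2, and bars are the means of an age. *E2f6* is the gene whose old libraries (43.4 and 48.8 CPM) both lie below its young libraries (59.8 and 75.7 CPM).

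No member passed the test between the ages. Of the 10 members, edgeR (quasi-likelihood) and DESeq2 each called 0 at an adjusted p under 0.05, and 0 had an unadjusted p under 0.05 in edgeR. Over all 10080 tested genes edgeR called 0.0% by adjusted p and 5.41% by unadjusted p (4.46% higher and 0.942% lower in old ETP), and DESeq2 called 2.23%. The members' adjusted p in edgeR was 1.0 for each, and log2 fold changes of old over young spanned -0.55 for *E2f6* to 0.75 for *E2f2*. The median over the members was -0.15, and that over all tested genes was -0.03. In 1 of 10 members the old and young libraries did not overlap, *E2f6*, against 32.1% of all tested genes.

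The activator genes overlapped between the ages. *E2f1* (GRCm38 chr2:154559407-154569892, minus strand) encodes the first-described E2F factor. It had 170 and 39 fragments in old and 279 and 66 in young ETP, or 13.7 and 8.63 CPM in old and 16.4 and 10.3 CPM in young ETP. In both ages replicate 2 was the lower library, and this gap within an age was wider than that between ages. The log2 fold change of old over young was -0.25 (standard error 0.44, 95% interval -1.36 to 0.86), and it turned to 0.03 without old replicate 2 and to 0.11 without young replicate 1. Taken by replicate number, which the labels do not pair, the log2 difference of old from young was -0.25 for replicate 1 and -0.24 for replicate 2.

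*E2f2* (chr4:136172394-136196057, plus strand), another activator gene, had 19.9 and 36.7 CPM in old and 20.5 and 12.9 CPM in young ETP. Old replicate 2 stood above the other 3 libraries, while old replicate 1 lay just below young replicate 1. Its estimate was the highest of the members, at 1.68 times the young level (log2 fold change 0.75, standard error 0.45, 95% interval -0.39 to 1.88). The log2 value fell to 0.25 without old replicate 2 and to 0.47 without young replicate 2. Old replicate 2 also held the highest sum of dendritic cell markers, at 20849 CPM, and the part of these markers in the *E2f2* value was not tested.

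*E2f3* (chr13:29906575-29986063, minus strand), the activator gene with the most fragments, had 816 and 468 fragments in old and 1472 and 612 in young ETP. These were 65.9 and 103.6 CPM in old and 86.7 and 95.2 CPM in young ETP, so both young libraries lay between the old ones. On the log2 scale the fold change was -0.10 (standard error 0.31, 95% interval -0.89 to 0.68), and it ran from -0.46 without old replicate 2 to 0.19 without old replicate 1. The table gives a single row per gene, so the long and short forms of E2f3, which start from separate promoters, were not told apart.

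The repressor genes included both the steadiest member and the one whose ages separated. *E2f4* (chr8:105297663-105305370, plus strand) encodes the factor best known from resting cells. It had 1496 and 486 fragments in old and 1937 and 644 in young ETP. Its levels were 121 and 107.6 CPM in old and 114 and 100.2 CPM in young ETP, which overlap within a narrow range. Its log2 fold change was 0.092 (standard error 0.25, 95% interval -0.53 to 0.71), and with a library left out it stayed between 0.005 and 0.17. On the authors' FPKM scale it was -0.20, where the median of all genes was -0.27.

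*E2f5* (chr3:14578641-14606309, plus strand), which like *E2f4* encodes a partner of the pocket proteins p107 and p130, was among the lowest members by fragments, with 169 and 38 in old and 221 and 81 in young ETP. Its levels were 13.6 and 8.41 CPM in old and 13.0 and 12.6 CPM in young ETP. The young libraries were close to each other, and the old ones lay on either side of them. The log2 fold change of -0.20 (standard error 0.39, 95% interval -1.20 to 0.80) turned to 0.09 without old replicate 2. The exons of *E2f5* overlap those of a gene annotated on the other strand (*1810022K09Rik*), and the sources used here do not give whether counting used strand.

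*E2f6* (chr12:16810963-16839742, plus strand) encodes a repressor that lacks the pocket protein binding domain and acts with Polycomb proteins. It had 605 and 196 fragments in old and 1016 and 487 in young ETP, or 48.8 and 43.4 CPM in old and 59.8 and 75.7 CPM in young ETP. Both old libraries were below both young libraries, which was so for 15.7% of all tested genes. The mean was 46.1 ± 3.87 CPM in old and 67.8 ± 11.3 CPM in young ETP (SD, n = 2 each), a log2 fold change of -0.55 (standard error 0.26, 95% interval -1.22 to 0.11). With a library left out the log2 value ran from -0.74 to -0.35. Within a library, where no scaling enters, *E2f6* stood at 0.323 and 0.324 of the FPKM of *E2f4* in old and at 0.418 and 0.605 in young ETP. That ratio was nearly equal in the old libraries and differed more between the young ones.

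The atypical genes overlapped between the ages. *E2f7* (chr10:110745439-110787384, plus strand) had 18.4 and 16.2 CPM in old and 26.7 and 14.3 CPM in young ETP, so that both old libraries lay between the young ones. Its log2 fold change of -0.25 (standard error 0.41, 95% interval -1.30 to 0.79) turned to 0.24 without young replicate 1. *E2f8* (chr7:48866429-48881596, minus strand) had 618 and 312 fragments in old and 1061 and 204 in young ETP, or 49.9 and 69.0 CPM in old and 62.5 and 31.7 CPM in young ETP. The lowest library was young replicate 2 and the highest old replicate 2. On the log2 scale the difference was 0.33 (standard error 0.41, 95% interval -0.70 to 1.36), with -0.059 without young replicate 2 and 0.87 without young replicate 1. Exons of *E2f7* and *E2f8* also overlap genes on the other strand (*1700020G17Rik* and *Gm2788*). In every library *E2f8* had more FPKM than *E2f7*, by 4.11 and 6.46 times in old and 3.55 and 3.35 times in young ETP.

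*Tfdp1* (chr8:13338751-13378448, plus strand) encodes DP1, the partner with which the first 6 factors of the family bind DNA. It had 1413 and 454 fragments in old and 2179 and 710 in young ETP, or 114 and 100.5 CPM in old and 128 and 110.4 CPM in young ETP. Old replicate 1 lay above young replicate 2, so the ages overlapped. Its log2 fold change was -0.15 (standard error 0.25, 95% interval -0.78 to 0.48) and stayed below 0 with any library left out, from -0.25 to -0.07.

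*Rbl1* (chr2:157145893-157204534, minus strand) encodes p107, a pocket protein that is itself made under E2F control in cycling cells. Its levels were 84.8 and 118 CPM in old and 106 and 117 CPM in young ETP, with the old libraries on either side of the young ones. The log2 fold change of -0.14 (standard error 0.28, 95% interval -0.84 to 0.57) turned to 0.082 without old replicate 1.

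**Figure D2:**
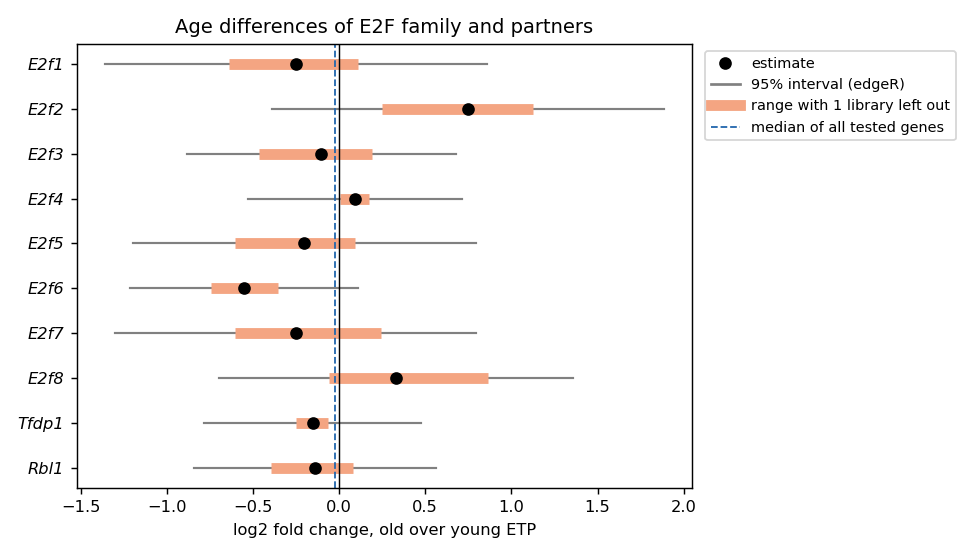
Log2 fold change of old over young ETP for each member. Black dots are the edgeR estimates, grey lines their 95% intervals and orange bars the range when each library is left out in turn, and the dashed line is the median of all tested genes (-0.03). Every interval crosses 0, and the orange bars of *E2f2*, *E2f4*, *E2f6* and *Tfdp1* stay on the side of their estimate.

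Per transcript length, *Tfdp1* and *E2f4* were the most abundant members. *Tfdp1* ranked 1 and *E2f4* ranked 2 of the 10 members by FPKM in all 4 libraries. *Tfdp1* was at 30.3 and 15.9 FPKM in old and 41.3 and 21.8 FPKM in young ETP, and *E2f4* at 26.7 and 14.2 FPKM in old and 30.6 and 16.6 FPKM in young ETP. The FPKM of replicate 2 were the lower ones for both genes, as were the sums of FPKM over all genes. *Rbl1* ranked 3 or 4, while *E2f6* ranked 4 and 6 in old and 3 in both young libraries. *E2f3* and *E2f8* took ranks 4 to 6. *E2f5*, *E2f1*, *E2f2* and *E2f7* were the lowest, at 0.726 to 4.05 FPKM over the 4 libraries, and their order among themselves changed between libraries.

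Shares within a library are free of the scaling between libraries. Of the summed FPKM of *E2f1* to *E2f8*, *E2f4* took 48.4% and 42.6% in old and 42.3% and 41.0% in young ETP. *E2f6* took 15.6% and 13.8% in old and 17.7% and 24.8% in young ETP, so its share was lower in both old libraries. The share of *E2f4* was higher in both old libraries, by a narrow margin between old replicate 2 and young replicate 1. The activators *E2f1*, *E2f2* and *E2f3* together took 17.0% and 23.5% in old and 19.3% and 19.6% in young ETP. *E2f7* and *E2f8* together took 12.6% and 16.2% in old and 15.1% and 8.64% in young ETP. The young libraries lay between the old ones for the activators, and the ages overlapped for the atypical factors. *E2f2* exceeded *E2f1* in FPKM by 2.12 times in old replicate 2, whereas the ratio was 0.718 in old replicate 1 and 0.615 and 0.626 in young ETP.

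**Figure D3:**
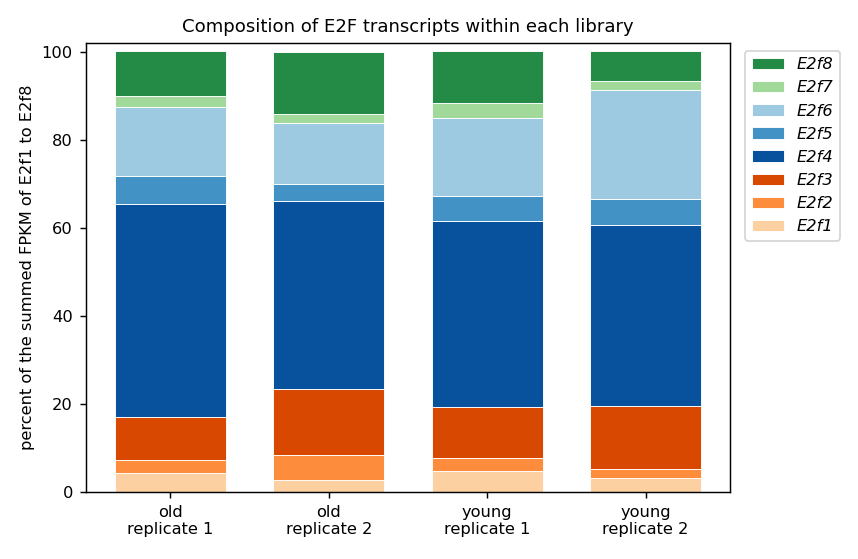
Percent of the summed FPKM of *E2f1* to *E2f8* taken by each gene, with a bar for each library and therefore no error bars. *E2f4* is the largest part of every bar (41.0% to 48.4%), and *E2f6* takes 13.8% and 15.6% in old and 17.7% and 24.8% in young ETP.

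The genes that act on E2F factors were described from lists of textbook members. Among the other pocket proteins, *Rb1* (48.4 and 135 CPM in old, 53.2 and 119.9 CPM in young ETP) and *Rbl2* (144 and 191 CPM in old, 142 and 187 CPM in young ETP) were higher in replicate 2 of both ages and had log2 fold changes of 0.08 and 0.02. *Tfdp2*, which encodes the other DP protein, had 126 and 139.6 CPM in old and 164 and 257 CPM in young ETP. Both old libraries were below both young ones, which was so for 15.7% of all tested genes. The log2 fold change of *Tfdp2* was -0.66 (standard error 0.31, adjusted p = 1.0 from edgeR).

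Of 8 D and E cyclin and kinase genes, 0 passed edgeR by adjusted p or DESeq2. In edgeR 1, with a higher estimate, had an unadjusted p under 0.05, where 4.46% of all tested genes were higher at that level. Estimates in old ETP were lower for 5 and higher for 3, and 53.0% of all tested genes had lower estimates. The D cyclins went in different directions. *Ccnd1* had 126 and 278 CPM in old and 104 and 65.3 CPM in young ETP (log2 fold change 1.25, adjusted p = 0.876 from edgeR), and *Ccnd2* had 338 and 314 CPM in old and 447 and 493 CPM in young ETP (log2 fold change -0.53, adjusted p = 1.0). Neither overlapped between the ages. Of the 8 genes, both old libraries lay above both young ones in 1 and below them in 2, where 32.1% of all tested genes did not overlap. Without old replicate 2 the log2 value of *Ccnd1* fell to 0.57. *Cdk6*, the kinase gene of this list with the highest CPM, had 733 and 577 CPM in old and 650.1 and 885 CPM in young ETP, which overlap.

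Among the 7 genes of CDK inhibitors, 4 were tested and all 4 had higher estimates in old ETP with every library in (median log2 fold change 0.64). Over all tested genes, 4739 of 10080 had higher estimates. Of the 4, 0 passed edgeR by adjusted p or DESeq2. In edgeR 1 had an unadjusted p under 0.05, where 4.46% of all tested genes were higher at that level. Both old libraries lay above both young ones in 1 of the 4, against 16.4% of all tested genes. The median of the 4 ran from 0.018 without young replicate 2 to 1.74 without young replicate 1. *Cdkn2c*, which encodes p18, had 61 and 52 fragments in old and 22 and 17 in young ETP, or 4.92 and 11.5 CPM in old and 1.30 and 2.64 CPM in young ETP (log2 fold change 2.08, adjusted p = 0.741 from edgeR). *Cdkn1a*, which encodes p21, had a wider gap inside each age than across them, with 119 and 13.9 CPM in old and 79.1 and 3.42 CPM in young ETP, and its log2 fold change ran from -1.58 without old replicate 1 to 4.28 without young replicate 1. *Cdkn2d*, which encodes p19, had 12.0 and 8.19 CPM in old and 10.5 and 2.64 CPM in young ETP, and its log2 fold change of 0.60 turned to -0.016 without young replicate 2. *Cdkn1b*, which encodes p27, had 39.9 and 30.3 CPM in old and 34.5 and 20.8 CPM in young ETP. *Cdkn2a* and *Cdkn2b* had 0 fragments in all 4 libraries, which allows up to 0.177 to 0.664 CPM per library (3 counts, counting error only).

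The partners of E2f6 in Polycomb complex PRC1.6 went in both directions. Of the 7 genes, all tested, 4 had lower and 3 higher estimates, and 0 passed edgeR by adjusted p, DESeq2 or an unadjusted p under 0.05. *Cbx3*, which encodes a heterochromatin protein, had 98.7 and 98.7 CPM in old and 137 and 162 CPM in young ETP (log2 fold change -0.60, adjusted p = 0.965 from edgeR), and *Rnf2*, the ubiquitin ligase gene, had 61.6 and 65.5 CPM in old and 77.3 and 107 CPM in young ETP (log2 fold change -0.53). Both were without overlap. Both old libraries lay below both young ones in 3 of the 7 genes, against 15.7% of all tested genes. *Max* was on the other side, with 159 and 209 CPM in old and 136 and 151 CPM in young ETP. *Mga* had 291 and 699 CPM in old and 390 and 836 CPM in young ETP, with replicate 2 the higher in both ages. Of 5 germline genes known to be silenced with E2f6, 0 passed the filter on low values. *Smc1b* and *Tuba3b* had 0 fragments throughout, *Slc25a31* and *Tuba3a* at most 0.443 CPM, and *Stag3*, a meiotic cohesin gene, had 51 and 16 fragments in old and 181 and 61 in young ETP. These were 4.12 and 3.54 CPM in old and 10.7 and 9.49 CPM in young ETP.

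*Skp2* encodes a ubiquitin ligase subunit that binds E2f1. It had 41.9 and 56.9 CPM in old and 73.9 and 76.7 CPM in young ETP (log2 fold change -0.61, standard error 0.27, adjusted p = 0.992 from edgeR). Both old libraries of *Skp2* were below both young ones, as were those of 15.7% of all tested genes. *Fzr1*, which encodes an activator of the anaphase-promoting complex, had 29.2 and 17.0 CPM in old and 37.0 and 21.8 CPM in young ETP. The MuvB core joins E2f4 and p130 or p107 in the DREAM complex. In a list of 7 genes, made of this core with *Mybl2* (B-Myb) and *Foxm1*, 4 had lower estimates (median -0.08, and 0.11 without young replicate 1). Of the 7, 0 passed edgeR by adjusted p, DESeq2 or an unadjusted p under 0.05. *Lin9* had 26.2 and 29.2 CPM in old and 33.7 and 36.5 CPM in young ETP, while *Foxm1* (log2 fold change 0.001) and *Mybl2* (-0.25) overlapped.

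Nearly all of the G1 and S phase genes that E2F factors are known to activate had lower estimates in old ETP, although no single one passed the test. With every library in, 38 of 39 such genes had a lower estimate, against 53.0% of all tested genes. Without young replicate 1 several estimates turned above 0, among them that of *Cdk1* (from -0.51 to 0.33), while the list median stayed below 0 (-0.22). Some estimates also turned above 0 without old replicate 1, and some without old replicate 2. Genes counted over the same 4 libraries are not independent of each other. The median log2 fold change was -0.44, beside -0.15 for the E2F members and -0.03 for all tested genes. Both old libraries lay below both young ones in 17 of the 39, against 15.7% of all tested genes. The exception was *Ccne1*, which encodes cyclin E1 (0.005), and *Cdc25a*, a phosphatase gene, was also close to 0 (-0.008). In edgeR 0 passed an adjusted p under 0.05 and 2 had an unadjusted p under 0.05, where 0.942% of all tested genes were lower at that level, and DESeq2 called 0.

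*Prim1*, which encodes a DNA primase subunit, had 51.2 and 37.4 CPM in old and 80.4 and 70.5 CPM in young ETP (log2 fold change -0.76, adjusted p = 0.850 from edgeR). Both old libraries lay below both young ones, and the log2 value ran from -1.01 to -0.56 when a library was left out. *Mcm6*, whose promoter is shown above, had 534 and 359 CPM in old and 712 and 569 CPM in young ETP (log2 fold change -0.52, adjusted p = 1.0), and *Dnmt1*, the maintenance DNA methyltransferase gene, had 456 and 333 CPM in old and 657 and 472 CPM in young ETP (log2 fold change -0.52, adjusted p = 1.0).

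Summed over the 39 genes, the level was 4783 and 3718 CPM in old and 6560 and 5161 CPM in young ETP, and the ages did not overlap. The dendritic cell marker sum given above was higher in the same old libraries, and its part in these values was not tested. The median log2 fold change was -0.24 without old replicate 2, -0.22 without young replicate 1, -0.60 without young replicate 2 and -0.70 without old replicate 1. On the authors' FPKM scale it was -0.66, beside -0.27 for all tested genes. An E2F site stood in a promoter window of 15 of the 30 target genes that had one. The median log2 fold change was -0.41 for the 15 genes with a site, -0.36 for the 15 without and -0.53 for the 9 genes with no window. The genes with a site were thus close to those without. All 39 were listed as known E2F targets, so this comparison cannot show whether a site matters.

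**Figure D4:**
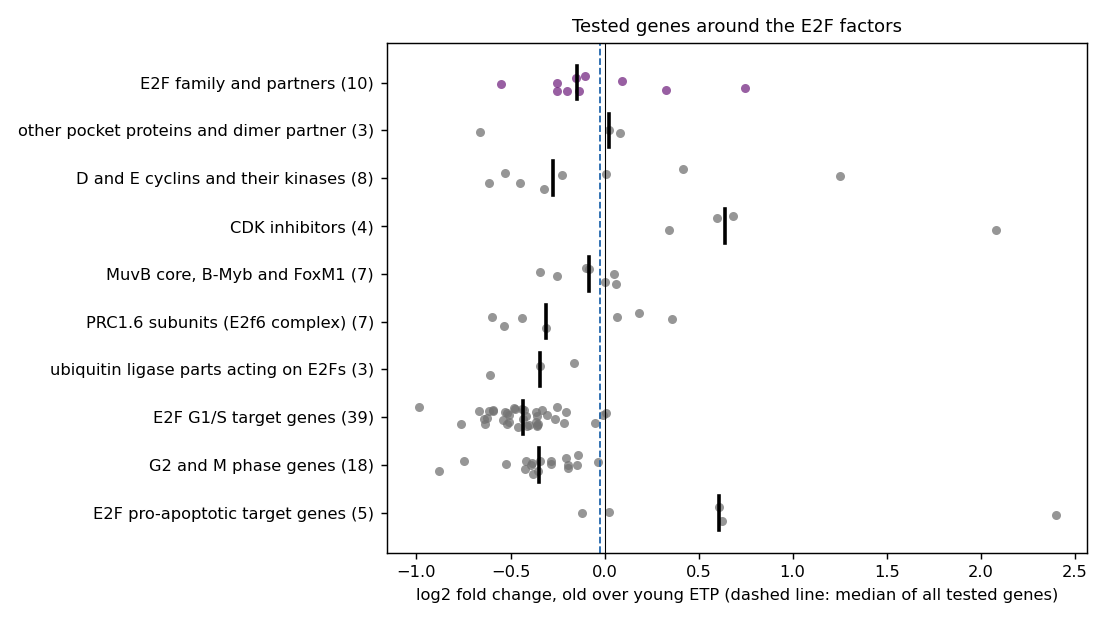
Log2 fold change of old over young ETP for the tested genes of 10 lists. Each point is a gene, black bars are list medians, the number of tested genes stands in parentheses, and the dashed line is the median of all tested genes (-0.03). The E2F members (top) scatter on both sides of 0 from -0.55 to 0.75, while 38 of 39 G1 and S phase targets lie below 0, with a median of -0.44.

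Genes of G2 and M phase, which the DREAM complex and FoxM1 regulate, had lower estimates in 18 of 18 (median -0.35), against 53.0% of all tested genes. Of the 18, 0 passed edgeR by adjusted p, DESeq2 or an unadjusted p under 0.05. Both old libraries lay below both young ones in 2 of the 18, *Top2a* among them, against 15.7% of all tested genes. The median of the 18 turned to 0.19 without young replicate 1. *Top2a*, a topoisomerase gene, had 359 and 368 CPM in old and 784 and 435 CPM in young ETP, and *Mki67* had 343 and 1062 CPM in old and 987 and 843 CPM in young ETP. Old replicate 1 was low for *Mki67* and old replicate 2 above both young libraries.

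Of 7 genes of cell death known as E2F1 targets, 5 were tested and 4 had higher estimates in old ETP. Over all tested genes, 4739 of 10080 had higher estimates. Of the 5, 0 passed edgeR by adjusted p, and DESeq2 called 1, against 2.23% of all tested genes. In edgeR 1 had an unadjusted p under 0.05, where 4.46% of all tested genes were higher at that level. Both old libraries lay above both young ones in 1 of the 5, against 16.4% of all tested genes. The median of the 5 was 0.61 on the log2 scale, and 0.082 to 0.38 with a library left out. *Pmaip1*, which encodes the BH3 protein Noxa, had 342 and 105 fragments in old and 119 and 15 in young ETP, or 27.6 and 23.2 CPM in old and 7.01 and 2.33 CPM in young ETP. Old over young, the log2 fold change was 2.40 (standard error 0.58, adjusted p = 0.493 from edgeR), and DESeq2 called it (adjusted p = 0.00474). *Apaf1* (93.3 and 182 CPM in old, 73.3 and 105 CPM in young ETP) and *Bcl2l11* (173 and 109 CPM in old, 110.5 and 74.7 CPM in young ETP) overlapped between the ages. The dendritic and NK cell markers above were higher in the same old libraries, and their part in these values was not tested.

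The genes closest in pattern were taken over the 4 libraries by the root mean square difference of centred log2 CPM. For *E2f1* they were *Ptma* (difference 0.02), *Prpf31* (0.02) and *Eef1a1* (0.03), and 229 tested genes lay within 0.1 of *E2f1*. *Ptma* had 890.1 and 551 CPM in old and 1049 and 660 CPM in young ETP, with replicate 2 lower in both ages as for *E2f1*. For *E2f8* they were *Dhrsx* (0.06), *Tmem109* (0.09) and *Eno1* (0.10), with 3 tested genes within 0.1. *Dhrsx* had 7.91 and 10.2 CPM in old and 9.01 and 4.36 CPM in young ETP. With 4 libraries such likeness is a description of these levels.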

How the data were processed

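The authors aligned paired reads of amplified ETP RNA with STAR 2.3.0 to GRCm38 (mm10). Cufflinks 2.1.1, HTSeq 0.5.4p3, Cuffdiff and DESeq 1.12.1 are further tools of the submitters' processing notes. The deposited table, laid out as Cuffdiff output, holds the authors' estimated counts of fragments per gene and library (95.71% to 96.13% whole within 1e-06), a scaled version that was not used, and the authors' FPKM, whose sums (230420 and 122998 in old, 281542 and 135313 in young ETP) kept a difference in depth. Strand, multiply aligned reads and filters are not given in the sources used here.

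Estimated counts were rounded, scaled by TMM and compared by age alone with edgeR 4.0.16 (quasi-likelihood, R 4.3.3). The 10080 genes tested reached an FPKM of 1 in 2 or more libraries, and p-values were adjusted over them by Benjamini-Hochberg at 0.05. Log2 fold changes are old over young. The fit was tested on simulated data. Alternatives were DESeq2 1.42.0, RLE factors, other filters, limma 3.58.1 on log2(FPKM + 1) and log2(FPKM + 0.1), the replicate number as a block and leaving out each library, where the spread of a lone library is taken from the other age. The members and lists were chosen with earlier results of these data known. All members were named, and from each other list up to 2 genes with the highest CPM and 2 with the smallest p, or any gene of a list of up to 8. *Ccne1*, *Cdc25a* and *Cdk1*, as targets, and the markers *Tbx21* and *Ptcra* were named after their values were seen. Some genes of the lists, counted in their totals, are not reported here by name. Positions are from GENCODE M21 and promoters from RefSeq (GRCm38.p6), matched by symbol. Counting limits leave out every other error, since PCR copies are not independent molecules.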

Additional observations from a re-analysis of the deposited data

How the results depend on the processing

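Under the alternatives 0 of the 10 members passed an adjusted p under 0.05 (lowest 0.187, for *E2f6* with the replicate block), and 97 of 106 member values kept their sign. Of the 9 values that changed sign, 2 each fell without old replicate 1, without old replicate 2 and without young replicate 1. There was 1 without young replicate 2 and 1 on each FPKM scale, and 0 in the other alternatives. With a library left out, log2 fold changes ran from -0.64 to 0.11 for *E2f1*, -0.46 to 0.19 for *E2f3*, -0.61 to 0.09 for *E2f5*, -0.60 to 0.24 for *E2f7*, -0.059 to 0.87 for *E2f8* and -0.39 to 0.082 for *Rbl1*. On the FPKM scale *E2f4* took the values -0.20 (pseudocount 1) and -0.20 (pseudocount 0.1), where all genes had medians of -0.27 and -0.33. The median of the members was -0.32 and -0.44 there, and -0.13 to 0.019 with a library left out. Over all genes, calls numbered 225 in DESeq2, 508 with no filter, 481 with the replicate block and 0 to 221 with a library left out (221 without old replicate 1). Replicates 1 and 2 deviated alike in both ages (Pearson r = 0.732 across 10080 genes, which are not independent replicates), but the labels do not pair them. Leaving out a library also unbalances the replicate numbers between the ages. The part of this in the values with a library left out, sign changes among them, was not tested. With a mean FPKM of at least 5, *E2f1*, *E2f2*, *E2f5* and *E2f7* were not tested. The causes were not tested. Depth limits the low members most, since *E2f1* and *E2f5* had 39 and 38 fragments in old replicate 2.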
